A study of Mus musculus with 18 samples.

Results

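The immediate early and rapid response genes described here are 38 genes that cells switch on soon after a stimulus, taken by name from a table of 23924 genes measured in astrocytes of the mouse primary motor cortex (M1). They were listed by function, as transcription factors, phosphatases, kinases and growth regulators that are induced by activity and by tissue dissociation, and the rule uses no measured value. All 38 were in the table. RNA sequencing libraries had been made from wild-type C57BL/6 mice that learned to push a lever on cue for a water reward, with 6 libraries from untrained naive mice, 6 from novice mice trained for 3 days and 6 from fully trained expert mice. Naive mice were 12 to 21 weeks old, novice mice 11 to 13 weeks and expert mice 13 to 15 weeks, and each group was labelled as 2 females and 4 males. The design text names water restriction as a step before training and does not say whether the naive mice were also restricted, how long expert mice had trained or how soon after a session tissue was taken. Whether the libraries stand for separate animals is not stated, and p-values here reflect the scatter of libraries, which may be technical.

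Immediate early genes respond to calcium, cyclic AMP, growth factor and stress signalling without needing new protein synthesis, because kinases such as ERK, p38 and PKA act on transcription factors already bound or waiting near their promoters. Serum response factor at CArG boxes and CREB at cyclic AMP response elements (CRE) are the best known of these factors. The transcripts are short-lived, and many of the proteins, such as the DUSP phosphatases, Zfp36 and Sik1, act to end the signal that induced them. In brain they are best known as markers of recently active neurons, and they are also strongly induced in glia and vessel cells when tissue is dissociated into single cells.

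Because CREB and serum response factor act at the promoter, the members' promoters were searched for their elements, and 5 are printed here. RefSeq promoter windows of 300 bases, with most of the window before the transcription start, were available for 30 of the 38 members (GRCm38.p6, a different build from that of the deposited values). No entry was matched for Fosl1, Egr1, Egr3, Arc, Ier2, Dusp4, Sik1 or Ctgf. The CRE core TGACG, searched on both strands, stood in the windows of 20 of the 30 members (66.7%), against 23.05% of 27025 genes with a window. The full CRE TGACGTCA, which contains an overlapping core on each strand, was in 3 of 30 members (10%: Btg2, Dusp1 and Maff), against 2.03% of all genes. A CArG box was found in Dusp5, Egr2 and Zfp36, 10% of members against 1.81% of all genes, and a TATAAA run on the coding strand in 6 members, 20% against 9.77%. The AP-1 site TGANTCA was in 0 of 30 windows, against 8.97% of all genes, which says only that these letters are not in these windows. Dusp1 (chr17:26508423-26508722, minus strand) and Btg2 (chr1:134079106-134079405, minus strand) are shown because they carry the full CRE and were among the 5 members with the smallest p in experts against naive mice. Nr4a1 (chr15:101266596-101266895, plus strand), Fos (chr12:85473640-85473939, plus strand) and Homer1 (chr13:93303507-93303806, plus strand) are shown because each carries more than 1 core. Sequences run 5′ to 3′ on the coding strand, and capitals mark every core in either orientation.
Dusp1: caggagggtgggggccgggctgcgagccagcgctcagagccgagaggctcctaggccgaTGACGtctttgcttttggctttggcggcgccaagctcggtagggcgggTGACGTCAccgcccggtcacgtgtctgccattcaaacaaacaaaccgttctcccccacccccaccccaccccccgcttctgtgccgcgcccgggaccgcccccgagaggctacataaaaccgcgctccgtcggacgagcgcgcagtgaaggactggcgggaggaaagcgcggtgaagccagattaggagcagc
Btg2: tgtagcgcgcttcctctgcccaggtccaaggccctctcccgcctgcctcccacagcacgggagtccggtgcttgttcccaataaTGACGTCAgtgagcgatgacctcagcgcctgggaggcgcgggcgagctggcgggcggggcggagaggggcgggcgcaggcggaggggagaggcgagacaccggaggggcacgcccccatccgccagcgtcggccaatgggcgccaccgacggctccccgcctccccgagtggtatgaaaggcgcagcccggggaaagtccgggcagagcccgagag
Nr4a1: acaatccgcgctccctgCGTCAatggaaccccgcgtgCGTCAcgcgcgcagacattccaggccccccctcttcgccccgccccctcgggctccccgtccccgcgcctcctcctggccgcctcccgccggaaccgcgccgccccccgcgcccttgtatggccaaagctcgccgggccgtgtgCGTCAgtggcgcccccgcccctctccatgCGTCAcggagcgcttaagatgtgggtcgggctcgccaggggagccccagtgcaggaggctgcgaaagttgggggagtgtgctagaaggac
Fos: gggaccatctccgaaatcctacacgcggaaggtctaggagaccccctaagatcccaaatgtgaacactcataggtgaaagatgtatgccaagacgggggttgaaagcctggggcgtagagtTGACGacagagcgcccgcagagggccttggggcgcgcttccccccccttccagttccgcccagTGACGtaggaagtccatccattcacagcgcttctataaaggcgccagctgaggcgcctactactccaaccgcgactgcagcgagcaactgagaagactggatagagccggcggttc
Homer1: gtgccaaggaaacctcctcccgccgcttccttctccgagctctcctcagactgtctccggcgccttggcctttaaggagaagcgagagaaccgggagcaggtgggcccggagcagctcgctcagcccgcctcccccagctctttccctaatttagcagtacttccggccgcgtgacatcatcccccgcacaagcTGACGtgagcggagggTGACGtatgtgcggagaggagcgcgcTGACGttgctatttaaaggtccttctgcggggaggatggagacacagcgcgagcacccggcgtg
Counting the last base before the transcription start as -1, the full CRE began at -143 in Dusp1 and at -166 in Btg2. In Fos the nearer core began at -66, and in Homer1 the farthest of 3 cores began at -56. These matches are letters in a window and are not measured binding sites.

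Several facts of the libraries bear on the values. The deposited values behave as FPKM, a fragment count divided by transcript length and library depth, and were treated as such. For 17 libraries the size of 1 fragment could be read from low values. It was worth 0.605 to 1.87 FPKM on a transcript of 1 kb. The libraries were thus shallow, and genes of a few FPKM rested on few fragments. Fos had roughly 22 to 198 fragments per library, while Egr4 had at most about 10.8 and Gadd45b at most about 9.3. The mean over 1465 silent receptor genes, a measure of background, was 0.304 to 3.36 FPKM in 10 libraries and 4.76 to 6.83 FPKM in the other 8, of which 2 were naive, 4 novice and 2 expert. The noncoding RNA Bc1 took 6.01% to 59.6% of summed FPKM. Novice 1 and novice 3 had sex chromosome transcripts that did not match their sex labels. Astrocyte markers were abundant, with a summed level of 1382 to 5349 FPKM in naive, 1335 to 3481 FPKM in novice and 1833 to 6724 FPKM in expert libraries over 12 genes. The same libraries held neuron markers (169 to 1370 FPKM over 15 genes) and endothelial markers (170 to 708 FPKM over 12 genes), and no gene of either list was at 0 throughout a group. In bulk RNA, fewer cells of a type and less RNA per cell cannot be told apart.

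Most members had readily measured levels in every group, but silent genes averaged 4.76 to 6.83 FPKM in 8 libraries. Some members were no higher than that there, and such values cannot be told from background. Sik1 stood at 4.17 FPKM in naive 5 and 5.87 FPKM in naive 6, where the background was 6.83 and 6.72 FPKM. In experts 4 and 5 it had 11.9 and 9.01 FPKM, above a background of 5.95 and 4.76 FPKM. A level of at least 1 FPKM in 6 or more libraries was reached by 37 members, and these entered the tests. Averaged over the 18 libraries, 19 members had 10 FPKM or more, 10 had 4 to 10 FPKM and 9 had less than 4 FPKM. Jun (31.3 FPKM), Klf2 (30.9 FPKM) and Fos (30.2 FPKM) were the most abundant per length, and their ranges overlapped so widely that their order is not resolved. Dusp1 followed at 21.0 FPKM and Egr1 at 19.3 FPKM. At the lower end stood Dusp4 (1.85 FPKM), Egr4 (1.44 FPKM) and Fosl1 (0.117 FPKM). Fosl1, a Fos family partner of Jun, was listed at 0 in 13 libraries and in the other 5 stood at 0.312 to 0.561 FPKM, about the value of 1 fragment. These 5 were novice 1 and experts 1, 2, 5 and 6, and no fold change can be read from single fragments.

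No gene of the 21745 tested passed an adjusted p of 0.05 in any of the 3 comparisons (limma on log2(FPKM + 1) with Benjamini-Hochberg adjustment), and no member did. All fold changes below are differences of mean log2(FPKM + 1), a scale that understates changes of low genes. Counts of members with an unadjusted p under 0.05 are therefore set beside the share of all tested genes that met the same limit. The ranges of the 2 groups overlapped for every member in every comparison. Of all tested genes, the share whose novice range lay wholly above or below the naive range was 0.0644% in each direction. Expert ranges lay wholly above naive ranges for 0.0368% and below for 0.0414% of genes, and wholly above novice ranges for 0.253% and below for 0.179%.

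**Figure D1:**
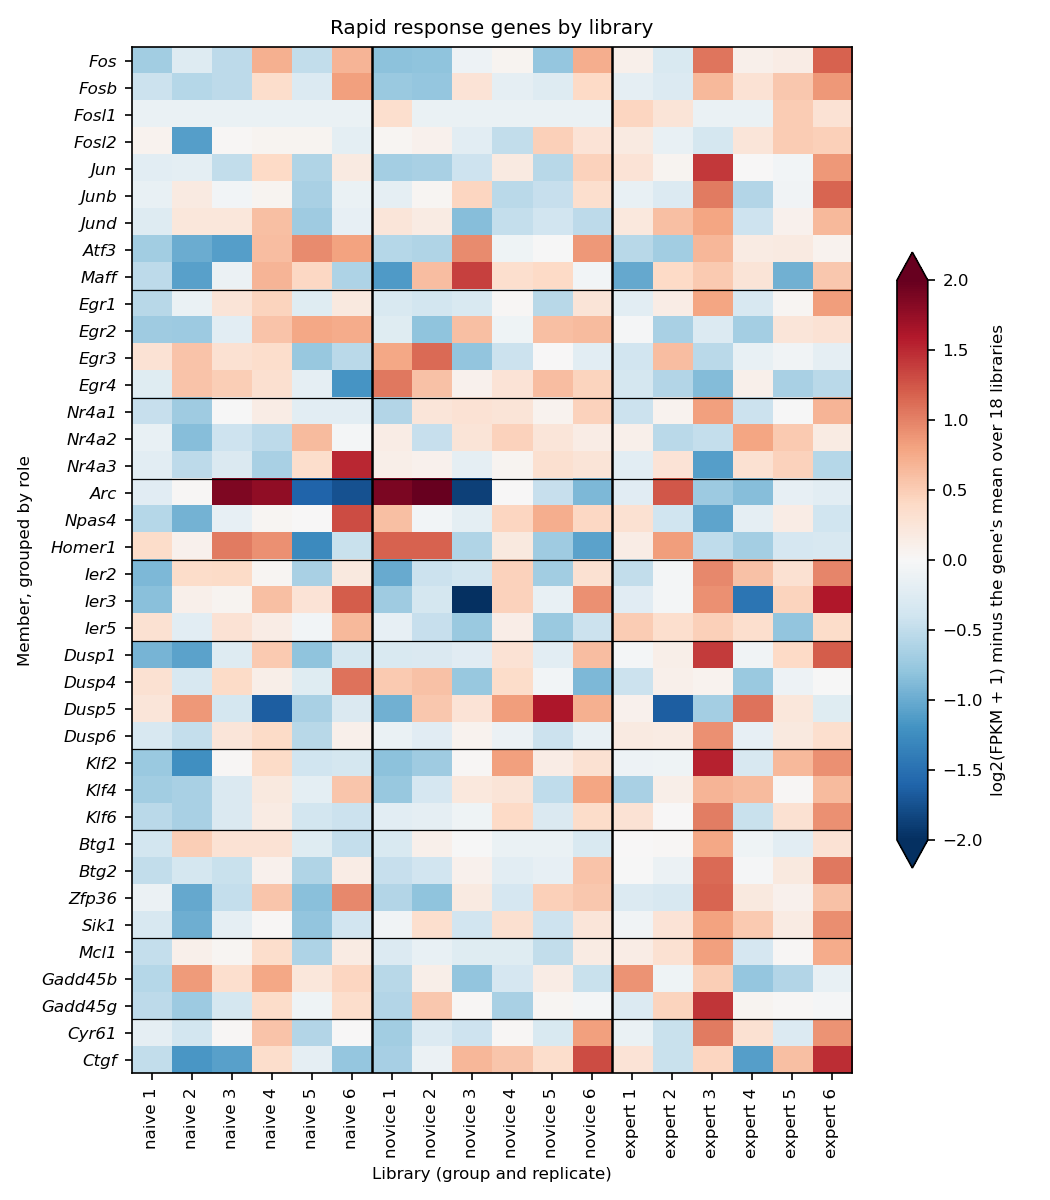
Level of each of the 38 members in each of the 18 libraries, as log2(FPKM + 1) minus that gene's mean over all libraries, with members grouped by role and libraries by group; colours beyond the ends of the scale are saturated. Experts 3 and 6 hold the highest and second highest values of 14 members, Fos, Jun and Dusp1 among them, while Arc and Homer1 are high in novices 1 and 2, expert 2 and naive 3 and 4.

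The first pattern in the members was a pair of libraries. Experts 3 and 6 had the highest and second highest level in 14 of the 37 tested members, in either order, which was true of 4.43% of all tested genes and of 11.2% of genes at 10 to 50 FPKM. These 14 were Fos, Jun, Junb, Jund, Egr1, Nr4a1, Ier2, Dusp1, Klf2, Klf6, Btg2, Sik1, Mcl1 and Cyr61. Expert 3 was the highest library for 13 members (12.6% of all genes) and expert 6 for 8 (3.52% of all genes). Fos, the prototype immediate early factor, stood at 58.4 FPKM in expert 3 and 62.6 FPKM in expert 6, with the other 4 experts between 21.8 and 30.3 FPKM and naive libraries between 16.4 and 45.2 FPKM. Junb, another AP-1 subunit, had 30.1 and 32.9 FPKM in these libraries, while the other 4 experts had 9.09 to 13.4 FPKM and naive libraries 8.65 to 16.0 FPKM. The remaining experts thus lay within the naive range for Junb and, in their 4 values, for Fos.

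Transcripts of vessel cells and heat shock genes were also highest in this pair, and expert 3 was extreme for other gene classes too. The mean log2 level of the 12 endothelial markers was 5.31 in expert 3 and 5.54 in expert 6, against 3.58 to 4.77 in the other 16 libraries. All 12 endothelial markers had a higher mean in experts than in naive mice, with a median log2 difference of 0.56, and all 10 pericyte and smooth muscle markers did too, with a median of 0.42. The mean log2 level of the pericyte and smooth muscle markers was 4.08 in expert 3 and 4.30 in expert 6, against 3.02 to 3.88 in the other libraries. That of 13 heat shock genes raised by cell dissociation was 5.40 in expert 3 and 5.04 in expert 6, against 4.26 to 5.01 in the other libraries. Expert 3 also had the lowest background, 0.304 FPKM. Astrocyte markers were higher in experts for 12 of 12 genes, by a median of 0.20. Their mean log2 level was highest in expert 3 at 7.99, with the next at 7.46 in naive 2, while expert 6 had 7.06. Microglia markers had their lowest mean log2 level in expert 3, at 1.79. For 20.3% of all tested genes expert 3 was the lowest library. Several members, Klf2 and Klf4 among them, are well known in endothelium, and a fit with endothelial markers as a covariate is given below. The part of pericytes, astrocytes, microglia, heat shock and background in the pair's levels was not tested.

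AP-1 factors pair as dimers of Fos and Jun proteins, and all 6 tested Fos and Jun genes had their highest mean of the 3 stages in experts. Fos had 16.4, 20.8 and 45.2 FPKM as lowest, median and highest value in naive libraries, 15.0, 20.4 and 45.8 FPKM in novice and 21.8, 29.9 and 62.6 FPKM in expert libraries. Jun, its main partner, had 18.7, 24.9 and 38.4 FPKM in naive, 17.6, 20.3 and 40.2 FPKM in novice and 27.7, 32.5 and 78.6 FPKM in expert libraries. Every expert library lay above the median of the naive and of the novice libraries for Jun and Fos, while the ranges overlapped. Jund, which is less inducible than Jun in most cells, had medians of 15.6, 11.0 and 20.6 FPKM in naive, novice and expert libraries. Fosb had medians of 6.70, 7.45 and 12.1 FPKM, and Fosl2 of 2.97, 3.03 and 3.49 FPKM. Atf3, a stress-induced repressor of the ATF family, overlapped fully between stages, with ranges of 1.95 to 11.2, 3.18 to 11.2 and 2.91 to 9.06 FPKM. Maff, a small Maf protein that lacks an activation domain, ranged from 0.362 FPKM in novice 1 to 6.64 FPKM in novice 3, down to about 1 fragment in the lowest library.

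The EGR zinc finger factors differed from each other. Egr1 had medians of 19.0, 14.8 and 19.9 FPKM in naive, novice and expert libraries, and its highest values were 33.7 FPKM in expert 6 and 32.6 FPKM in expert 3. Egr2 stayed between 0.818 and 4.44 FPKM and Egr3 between 3.25 and 15.1 FPKM. Egr4 had 0, 1.40 and 2.36 FPKM as lowest, median and highest value in naive libraries, 1.40, 2.23 and 3.66 FPKM in novice and 0.238, 0.526 and 1.43 FPKM in expert libraries. The expert values of Egr4 reached the novice range only in expert 4, the highest expert library, but all rest on few fragments. Each of them also lay below the mean of silent genes in its library. Of the NR4A orphan nuclear receptors, Nr4a1 had medians of 9.15, 13.0 and 11.1 FPKM, Nr4a2 of 5.23, 7.63 and 7.26 FPKM and Nr4a3 of 2.98, 4.08 and 3.91 FPKM in naive, novice and expert libraries. For all 3 receptors the naive median was the lowest and the ranges overlapped.

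Arc, Npas4 and Homer1 are the members most closely tied to neuronal activity. Arc, which drives removal of glutamate receptors from synapses, was the most variable of the members above 10 FPKM, with 2.32 FPKM in novice 3 and 53.8 FPKM in novice 2, a 23.2-fold range. Its lowest, median and highest values were 2.61, 10.3 and 42.9 FPKM in naive, 2.32, 9.47 and 53.8 FPKM in novice and 5.69, 9.37 and 27.6 FPKM in expert libraries. The 3 medians lay close together while each group held both low and high libraries. Homer1, a postsynaptic scaffold whose short activity-induced form is not separated from the long one in a gene-level value, had 5.09, 16.3 and 29.2 FPKM in naive, 6.02, 12.3 and 32.4 FPKM in novice and 8.19, 10.7 and 25.3 FPKM in expert libraries. The 5 highest libraries for Arc and for Homer1 were the 5 with the highest mean level of neuron markers (novice 1, novice 2, expert 2, naive 3 and naive 4), which held for 1.17% of all tested genes, and Egr3 shared 4 of these 5. Npas4, a neuron-restricted factor induced by calcium entry, did not share them. It had 0.625, 1.98 and 6.78 FPKM in naive, 1.73, 3.21 and 4.19 FPKM in novice and 0.515, 1.57 and 2.87 FPKM in expert libraries, from about 2.9 to 19.7 fragments. The part of neuronal RNA in these levels was not tested.

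**Figure D2:**
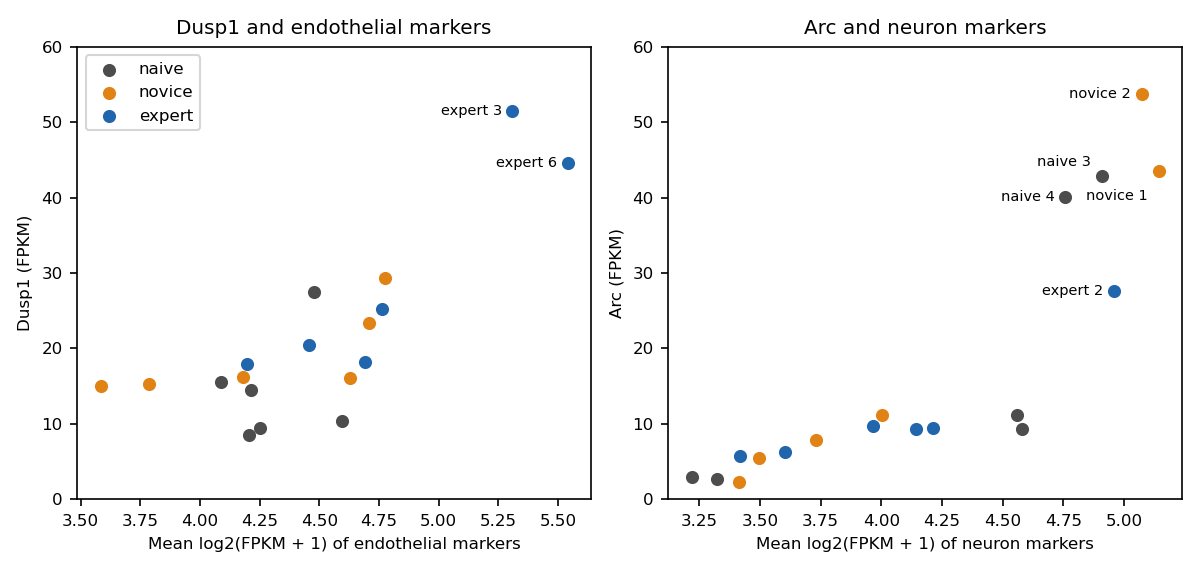
Dusp1 (FPKM) against the mean log2(FPKM + 1) of 12 endothelial markers, and Arc (FPKM) against that of 15 neuron markers, 1 point per library coloured by group. Experts 3 and 6 lie at the upper right of the Dusp1 panel, and the 5 libraries highest in neuron markers hold the 5 highest Arc values.

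Feedback regulators included the members with the smallest p-values. Sik1, a kinase induced by CREB that phosphorylates CREB coactivators and so restrains the same response, had 3.57, 6.04 and 8.13 FPKM as lowest, median and highest value in naive libraries, 5.71, 8.56 and 10.4 FPKM in novice and 7.53, 10.9 and 16.1 FPKM in expert libraries. The lowest expert value lay below the highest naive one, and every expert library exceeded the naive median. Dusp1, a phosphatase that switches off p38, JNK and ERK, had 8.47, 12.4 and 27.5 FPKM in naive, 15.0, 16.1 and 29.4 FPKM in novice and 17.9, 22.9 and 51.5 FPKM in expert libraries. Its highest naive value was in naive 4, with the next at 15.5 FPKM, and the naive and expert ranges overlapped. Dusp6, which acts on ERK in the cytoplasm, had medians of 9.88, 9.53 and 12.3 FPKM in naive, novice and expert libraries. The nuclear ERK phosphatases Dusp4 and Dusp5 were low, with medians of 2.12, 2.02 and 1.59 FPKM for Dusp4 and 1.51, 3.84 and 1.99 FPKM for Dusp5. Dusp5 was listed at 0 in naive 4 and expert 2.

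The RNA decay factor Zfp36 had medians of 10.2, 12.1 and 14.1 FPKM in naive, novice and expert libraries. Btg2, an antiproliferative protein that recruits a deadenylase to mRNA, had 8.52, 9.92 and 15.0 FPKM as lowest, median and highest value in naive, 9.44, 11.6 and 20.5 FPKM in novice and 12.2, 14.4 and 30.6 FPKM in expert libraries. Its relative Btg1 had medians of 8.38, 7.31 and 8.16 FPKM, highest in naive libraries. Of the Krüppel-like factors, Klf2, which endothelium induces under flow, had 11.1, 20.8 and 36.0 FPKM in naive, 15.1, 29.2 and 49.0 FPKM in novice and 21.8, 34.6 and 81.3 FPKM in expert libraries. Klf6 had 7.50, 9.15 and 14.0 FPKM in naive, 9.92, 11.2 and 16.7 FPKM in novice and 8.77, 15.5 and 26.3 FPKM in expert libraries. For both, medians ran in the order naive, novice, expert, with the top of the expert range set by experts 3 and 6. Klf4 had medians of 14.1, 16.4 and 22.5 FPKM.

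The remaining members are stress, survival and matrix genes. Ier2 had medians of 11.7, 7.87 and 14.9 FPKM in naive, novice and expert libraries, Ier3 of 6.97, 4.87 and 7.19 FPKM, and Ier5, a heat shock factor cofactor, of 7.68, 4.45 and 8.52 FPKM. All 3 IER genes thus had their lowest median in novices. Mcl1, a short-lived inhibitor of apoptosis, had medians of 17.3, 13.7 and 19.5 FPKM in naive, novice and expert libraries. Gadd45b and Gadd45g bind upstream kinases of p38. Gadd45b had 1.62, 4.05 and 6.02 FPKM in naive, 1.25, 1.96 and 3.30 FPKM in novice and 1.27, 2.57 and 6.23 FPKM in expert libraries, while Gadd45g had medians of 8.78, 10.3 and 10.7 FPKM. Cyr61 and Ctgf encode secreted matricellular proteins that are standard targets of YAP and serum response factor. Cyr61 had medians of 12.2, 10.4 and 14.0 FPKM in naive, novice and expert libraries. Ctgf had 2.33, 3.84 and 8.54 FPKM in naive, 3.68, 9.25 and 17.4 FPKM in novice and 2.46, 8.54 and 19.7 FPKM in expert libraries, and the 3 ranges overlapped.

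**Figure D3:**
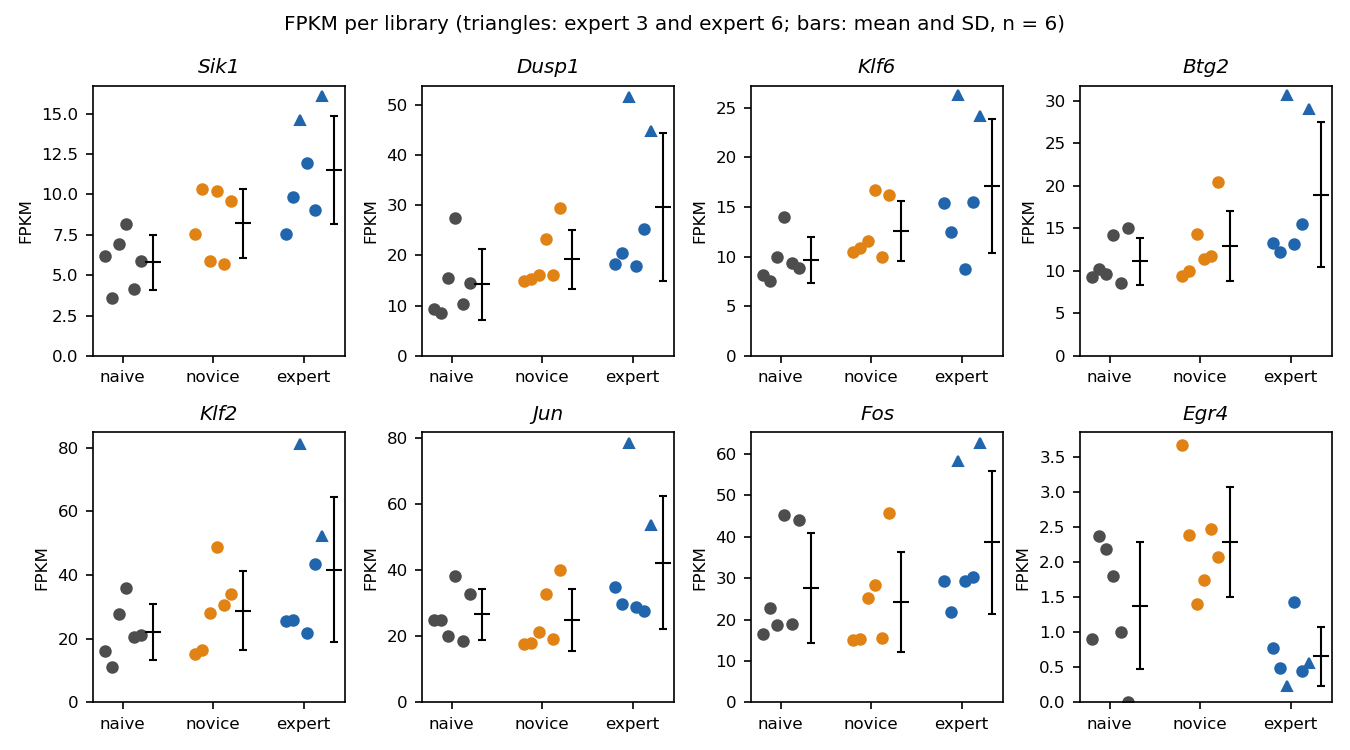
FPKM of Sik1, Dusp1, Klf6, Btg2, Klf2, Jun, Fos and Egr4 in each library by stage of training, with mean and SD of 6 libraries; triangles mark experts 3 and 6. For Fos the triangles stand at 58.4 and 62.6 FPKM above 4 experts at 21.8 to 30.3 FPKM, while for Sik1 the other experts still range from 7.53 to 11.9 FPKM.

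Novice against naive mice asked what 3 days of training had done. Novice means were higher for 22 of 37 members, with 57.0% of all tested genes higher, and the members' median log2 difference was 0.07, equal to the median of all genes. Among genes at 10 to 50 FPKM, the level of many members, 1430 of 4220 were higher and the median was -0.15. An unadjusted p under 0.05 was met by 3 members, against 4.60% of all tested genes. Of these, 1 was higher (2.72% of all tested genes) and 2 were lower (1.88% of all tested genes). Ctgf averaged 9.40 ± 4.75 FPKM in novice and 4.44 ± 2.34 FPKM in naive libraries (SD, n = 6 each). Its log2 difference was 0.91 with a standard error of 0.39 and an unadjusted p of 0.032, and 5 of 6 novice libraries exceeded the naive median. Ier5 averaged 4.77 ± 1.43 FPKM in novice and 7.63 ± 1.84 FPKM in naive libraries, a log2 difference of -0.59 with a standard error of 0.24 and an unadjusted p of 0.022. Gadd45b averaged 2.21 ± 0.844 FPKM in novice and 4.15 ± 1.58 FPKM in naive libraries, a log2 difference of -0.65 with a standard error of 0.30 and an unadjusted p of 0.041. For Ier5 and for Gadd45b every novice library lay below the naive median. Gadd45b lay below its library's mean of silent genes in every novice library except novice 2 and in naive 1, 5 and 6. Ier5 did so in novices 3, 5 and 6 and in naive 5, and Ctgf in naive 3, 5 and 6. Such values cannot be told from background. The adjusted p of all 3 was 0.89 (limma).

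Next in order of p were 7 members with means higher in novices. Sik1 had a log2 difference of 0.44 (standard error 0.23, unadjusted p = 0.068), Egr4 of 0.54 (0.30, 0.086) and Dusp5 of 0.81 (0.47, 0.10). Dusp1 differed by 0.46 (standard error 0.31, unadjusted p = 0.15), Nr4a1 by 0.37 (0.25, 0.15), Klf6 by 0.35 (0.24, 0.16) and Nr4a2 by 0.35 (0.27, 0.20), and none of these differences exceeded the spread between libraries at a p of 0.05. Of the classical activity markers, Fos averaged 24.2 ± 12.0 FPKM in novice and 27.7 ± 13.3 FPKM in naive libraries, a log2 difference of -0.19 with an unadjusted p of 0.59. For Junb the log2 difference was 0.07 (standard error 0.29, unadjusted p = 0.82), for Arc 0.13 (0.70, 0.85), for Homer1 -0.09 (0.44, 0.85) and for Npas4 0.37 (0.33, 0.26). The 95% interval of the Fos difference ran from -0.90 to 0.53, and includes differences of either sign. Astrocyte markers were lower in novices than in naive mice for 12 of 12 genes, with a median log2 difference of -0.61, and their part in the members' levels was not tested. Without novices 1 and 3, the libraries against their sex label, 3 members had an unadjusted p under 0.05. The share of all tested genes is not given for that fit, so this count is no result about the members.

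Expert against naive mice asked what full training had done. Expert means were higher for 27 of 37 members, while 43.9% of all tested genes were higher. The members' median log2 difference was 0.33, against -0.05 for all tested genes and 0.04 for genes at 10 to 50 FPKM, of which 2351 of 4220 were higher. An unadjusted p under 0.05 was met by 5 members, against 2.86% of all tested genes. All 5 were higher in experts, the direction taken by 1.43% of all tested genes, and 0 were lower, against 1.43%. Of the 4220 genes at 10 to 50 FPKM, 101 were higher and 18 lower at this limit. By role, all 8 tested AP-1 factors had a higher expert mean with 0 of them under that limit, as did all 3 Krüppel-like factors with 2 under it and all 4 of Btg1, Btg2, Zfp36 and Sik1 with 2 under it. Arc, Npas4 and Homer1, and 3 of the 4 EGR factors, had a lower expert mean.

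Sik1 averaged 11.5 ± 3.34 FPKM in expert and 5.81 ± 1.70 FPKM in naive libraries (SD, n = 6 each). Its log2 difference of 0.87 had a standard error of 0.23 and an unadjusted p of 0.0011, and expert libraries lay above the naive median in 6 of 6. Dusp1 averaged 29.7 ± 14.7 FPKM in expert and 14.3 ± 7.07 FPKM in naive libraries, a log2 difference of 0.99 with a standard error of 0.31 and an unadjusted p of 0.0048. Klf6 averaged 17.1 ± 6.79 FPKM in expert and 9.67 ± 2.32 FPKM in naive libraries, a log2 difference of 0.70 with a standard error of 0.24 and an unadjusted p of 0.0088. For Btg2 the means were 19.0 ± 8.48 FPKM in expert and 11.1 ± 2.75 FPKM in naive libraries, a log2 difference of 0.65 with a standard error of 0.26 and an unadjusted p of 0.020. For Klf2 they were 41.7 ± 22.8 FPKM in expert and 22.1 ± 8.80 FPKM in naive libraries, a log2 difference of 0.82 with a standard error of 0.35 and an unadjusted p of 0.031. The adjusted p of all 5 was 0.9996 (limma), so none of them passed the test across all genes.

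Members next in order of p missed the limit. Jun had a log2 difference of 0.58 (standard error 0.28, unadjusted p = 0.055), Ctgf of 0.76 (0.39, 0.067), Dusp6 of 0.38 (0.21, 0.085), Mcl1 of 0.36 (0.22, 0.13) and Gadd45g of 0.44 (0.29, 0.14). Fos averaged 38.6 ± 17.3 FPKM in expert and 27.7 ± 13.3 FPKM in naive libraries, a log2 difference of 0.48 with a 95% interval from -0.23 to 1.19 and an unadjusted p of 0.18. For Junb the log2 difference was 0.32 (standard error 0.29, unadjusted p = 0.29), for Nr4a1 0.36 (0.25, 0.16), for Npas4 -0.21 (0.33, 0.52), for Arc -0.17 (0.70, 0.81) and for Homer1 -0.26 (0.44, 0.56). Arc, Npas4 and Homer1 had lower expert means without a difference beyond their spread, as did Dusp4, and 14 of 15 neuron markers also had a lower expert mean.

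**Figure D4:**
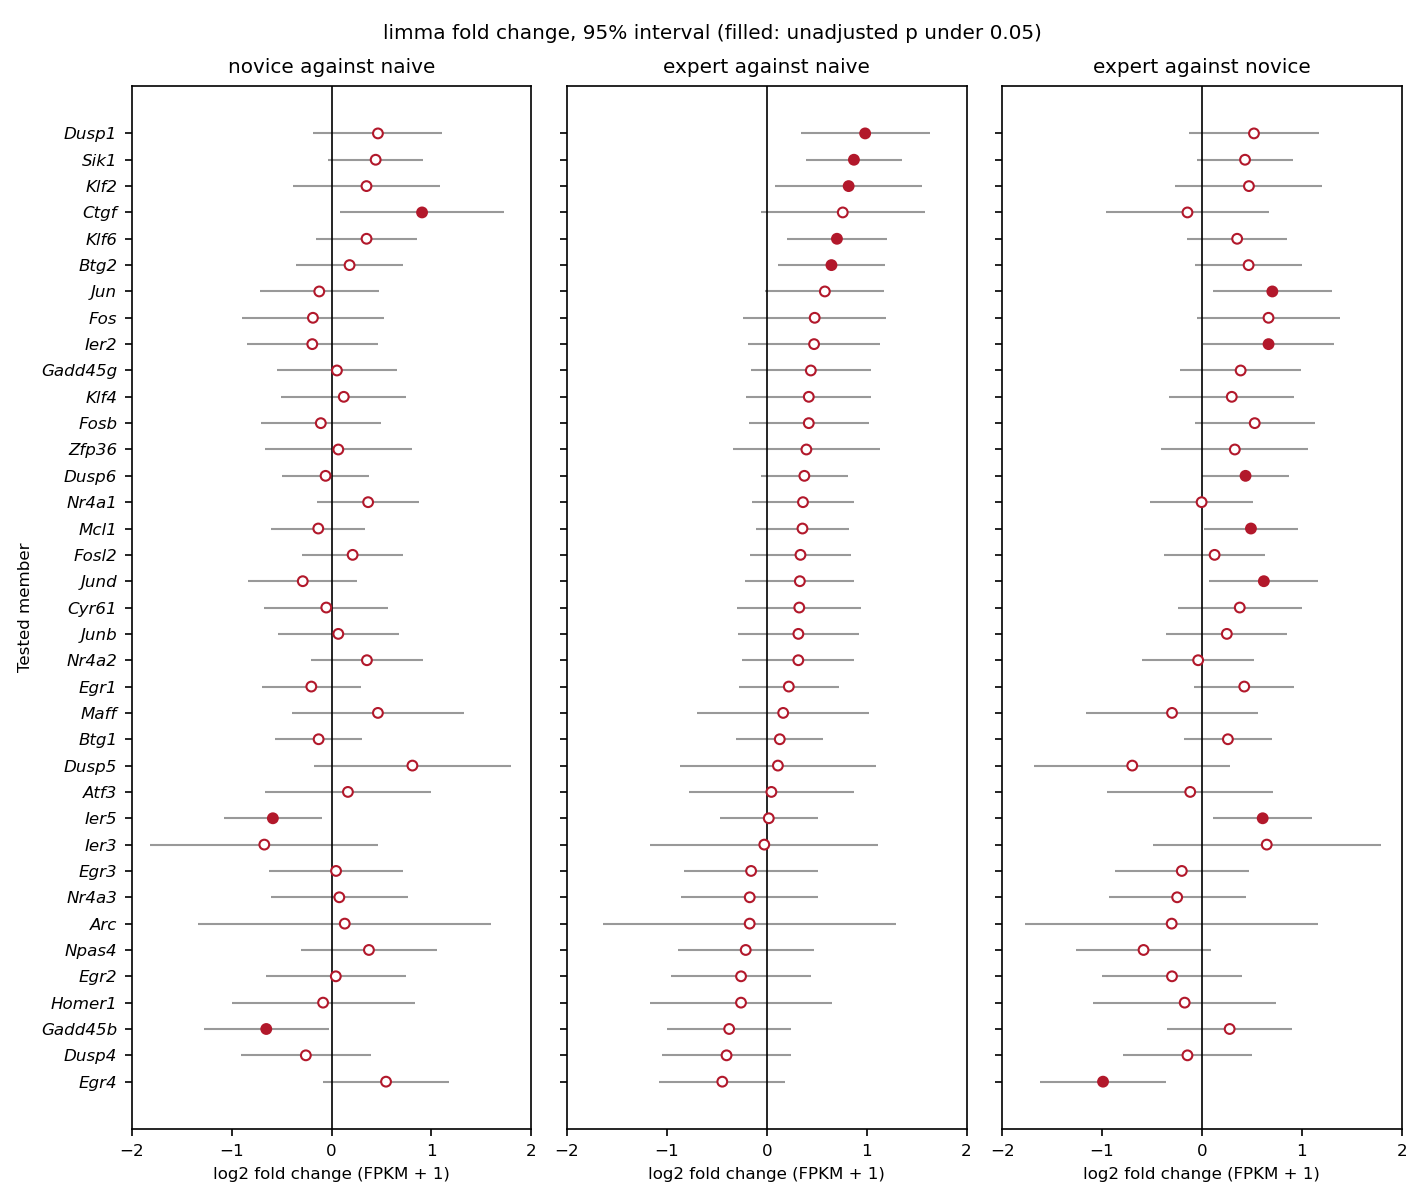
Difference of mean log2(FPKM + 1) with its 95% interval for each of the 37 tested members in the 3 comparisons, with filled points for an unadjusted p under 0.05 and a solid line at 0. Filled points number 3 in the novice and naive panel, 5 in the expert and naive panel and 7 in the expert and novice panel, and most expert differences lie to the right of 0.

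The expert difference was also fitted without experts 3 and 6. This pair held the highest and second highest values of 14 members, so leaving it out had to lower the expert means of those members. Whether the drop goes beyond that was not tested. Without both, a choice made after their values were seen, 22 of 37 members had a higher expert mean (52.7% of all genes) and the median log2 difference was 0.11, against 0.02 for all genes. Only Sik1 then had an unadjusted p under 0.05 among the members, with a log2 difference of 0.66 (unadjusted p = 0.014, limma). Of all tested genes, 0.947% were higher at that limit. Dusp1 stood at 0.58 (unadjusted p = 0.060), Klf6 at 0.39 (unadjusted p = 0.10), Klf2 at 0.42 (unadjusted p = 0.24), Btg2 at 0.29 (unadjusted p = 0.23) and Jun at 0.22 (unadjusted p = 0.41), and the Junb difference took the opposite sign at -0.14. With the mean level of endothelial markers as a covariate over all 18 libraries, the members' median was 0.07 and Sik1 was again the member under the limit (0.76, unadjusted p = 0.0088), with Dusp1 at 0.54 (unadjusted p = 0.073), Klf6 at 0.31 (unadjusted p = 0.14) and Klf2 at 0.23 (unadjusted p = 0.43). In the same fit the differences of Ctgf (-0.01), Fos (-0.06), Nr4a1 (-0.01) and Junb (-0.04), all positive without the covariate, were close to 0. All 12 endothelial markers were themselves higher in experts, most of all in experts 3 and 6. The covariate thus takes out part of any stage difference, and vessel content and stage cannot be told apart here. Sik1 was also higher in experts among the 8 libraries of high background (0.93, unadjusted p = 0.027) and among the other 10 (0.84, unadjusted p = 0.012). The 8 hold only 2 expert and 2 naive libraries, and the 10 include experts 3 and 6. Leaving out any 1 library gave Sik1 a log2 difference of 0.77 to 0.97 with an unadjusted p of at most 0.0040. The lowest adjusted p it reached in any of the fits tried was 0.755. Within the 10 libraries of lower background 30 of 37 members had a higher expert mean (median 0.39), and within the other 8 it was 25 of 37 (median 0.19). Of all tested genes, 43.9% were higher within the 10 (median -0.05) and 47.3% within the 8 (median -0.03).

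**Figure D5:**
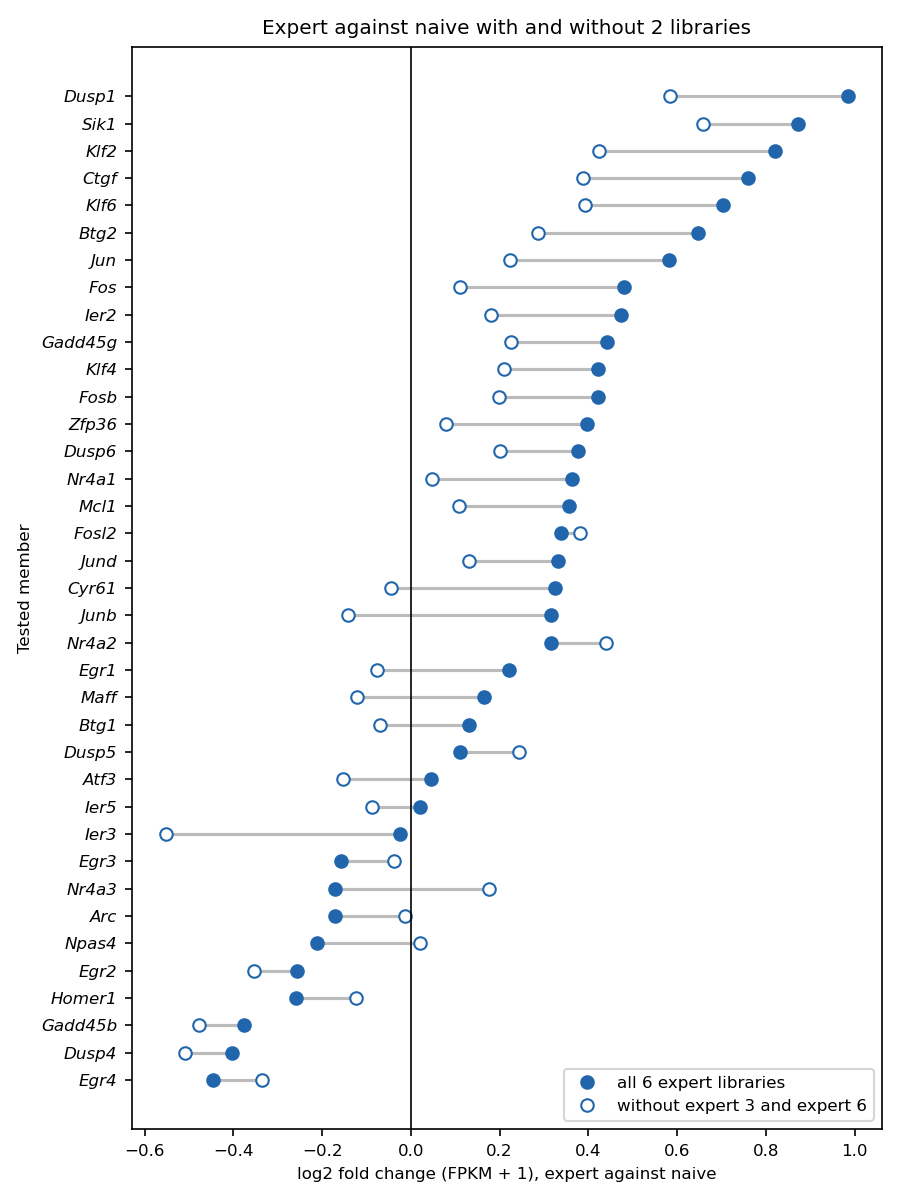
Expert minus naive difference of mean log2(FPKM + 1) for each tested member with all libraries and without experts 3 and 6. The median of the members is 0.33 with all libraries and 0.11 without the pair, and Sik1 keeps a difference of 0.66.

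Expert against novice mice asked how late training differed from early training. Expert means were higher for 23 of 37 members, against 40.4% of all tested genes, and the members' median log2 difference of 0.30 stood beside -0.14 for all genes and 0.22 for genes at 10 to 50 FPKM, of which 2860 of 4220 were higher, a larger share than that of the members. An unadjusted p under 0.05 was met by 7 members, against 10.9% of all tested genes, of which 6 were higher (4.88% of all tested genes) and 1 was lower (5.97%). Of the 4220 genes at 10 to 50 FPKM, 537 were higher and 117 lower at this limit. The lower member, Egr4, averaged 0.656 ± 0.416 FPKM in expert and 2.29 ± 0.783 FPKM in novice libraries (SD, n = 6 each). Its log2 difference was -0.99 with a standard error of 0.30 and an unadjusted p of 0.0038. Every expert library lay below the novice median, and the values correspond to at most about 10.8 fragments. Egr4 also lay below its library's mean of silent genes in every expert library and in every novice library except novice 1. Such values cannot be told from background, which averaged 2.99 FPKM in expert and 4.72 FPKM in novice libraries. Ier5 averaged 7.95 ± 2.33 FPKM in expert and 4.77 ± 1.43 FPKM in novice libraries, a log2 difference of 0.61 with a standard error of 0.24 and an unadjusted p of 0.018. It lay below its library's mean of silent genes in novices 3, 5 and 6 and in expert 5. Jun averaged 42.3 ± 20.2 FPKM in expert and 24.9 ± 9.39 FPKM in novice libraries, a log2 difference of 0.71 with a standard error of 0.28 and an unadjusted p of 0.023. For Jun and for Jund, which had 19.9 ± 5.96 FPKM in expert and 12.6 ± 4.09 FPKM in novice libraries, all 6 expert libraries exceeded the novice median. Jund differed by 0.62 (standard error 0.26, unadjusted p = 0.028), Mcl1 by 0.49 (0.22, 0.042), Ier2 by 0.67 (0.31, 0.047) and Dusp6 by 0.44 (0.21, 0.048). The adjusted p of all 7 was 0.45 (limma).

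Other named members lay nearer to the spread of the libraries. Fos had a log2 difference of 0.67 (standard error 0.34, unadjusted p = 0.066), Sik1 of 0.43 (0.23, 0.073), Fosb of 0.53 (0.29, 0.081), Npas4 of -0.58 (0.33, 0.088) and Dusp1 of 0.52 (0.31, 0.11). Junb differed by 0.25 (standard error 0.29, unadjusted p = 0.40), Arc by -0.30 (0.70, 0.67), Homer1 by -0.17 (0.44, 0.70) and Nr4a1 by 0.00 (0.25, 0.99). Npas4 had all 6 expert libraries below the novice median, at an average of 1.73 ± 0.847 FPKM in expert and 3.02 ± 0.966 FPKM in novice libraries. Without experts 3 and 6 the members' median was 0.09, against -0.05 for all genes. Egr4 alone stayed under the limit (-0.88, unadjusted p = 0.020, limma), and the share of all genes lower at it is not given. Without novices 1 and 3 the number of members under the limit was 4, which is no result about the members because the share of all genes is not given. Endothelial markers were higher in experts than in novices for 12 of 12 genes (median 0.53), as were astrocyte markers for 12 of 12 (median 0.79). With endothelial markers as a covariate the members' median was 0.06, and 5 members had an unadjusted p under 0.05, with Jund and Ier5 higher and Egr2, Egr4 and Ctgf lower in experts. In that fit 2.89% of all tested genes were higher at this limit. Of all tested genes, 40.3% had a higher expert mean there, with a median of -0.14. The share lower at this limit is not given, so the count of lower members is no result about the members. Vessel content and stage cannot be told apart in this fit either, and the part of astrocyte markers was not tested.

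In a test of any difference among the 3 groups, the members with the smallest unadjusted p were Sik1 (0.0043), Egr4 (0.014) and Dusp1 (0.017), where 5.53% of all tested genes had a p under 0.05. The smallest adjusted p of a member was 0.75 (limma's F test), and 0 genes passed. Sik1, Klf2, Klf6, Btg2 and Dusp1 had medians in the order naive, novice, expert. Fosb, Fosl2, Zfp36, Klf4 and Gadd45g had the same order, and the share of all genes with it is not given. Ier5 had its lowest median in novices. Egr4 had its lowest in experts, where each value lay below the mean of silent genes.

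Other genes of the same response were taken from a list of 46 further rapid response genes, all of them tested. In novice against naive mice 24 of 46 had a higher mean (median log2 difference 0.05), and 2 met an unadjusted p under 0.05, both higher, where 2.72% of all tested genes did so in that direction. These were Arl4d, a small GTPase of the ARF family, at 6.26 ± 2.10 FPKM in novice and 3.29 ± 1.74 FPKM in naive libraries, and Rasd1, a Ras family protein induced by glucocorticoids, at 5.35 ± 2.75 FPKM in novice and 2.57 ± 1.59 FPKM in naive libraries. In expert against naive mice 33 of 46 had a higher mean (median 0.15) and 6 met the limit, all higher, against 1.43% of all genes. They included Arl4d (log2 difference 0.77, standard error 0.28, unadjusted p = 0.012), Cebpd, a stress-induced C/EBP factor (0.81, 0.30, 0.015), Coq10b (0.63, 0.24, 0.017) and Plk3, a polo-like kinase (0.68, 0.29, 0.031). In expert against novice mice 27 of 46 had a higher mean (median 0.17) and 5 met the limit, all higher, against 4.88% of all genes, with Tiparp (0.78, 0.30, 0.018), Midn (0.63, 0.24, 0.019), Tob2 (0.60, 0.27, 0.039) and Bhlhe40 (0.57, 0.27, 0.047) having the smallest p. None of these genes passed the adjusted threshold (limma).

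Kinases and factors that act upstream of the members were described in the same way. Of 33 such genes, 11 had a higher mean in novice than in naive mice (median -0.11, against 0.07 for all tested genes). In expert against naive mice 24 of 33 had a higher mean (median 0.07, against -0.05), and in expert against novice mice 24 of 33 did (median 0.18, against -0.14). An unadjusted p under 0.05 was met by 0 of them in novice against naive mice, by 1, which was lower, in expert against naive mice, and by 2 higher and 2 lower in expert against novice mice, where 10.9% of all tested genes met it in either direction. Mapk8, the stress kinase JNK1, averaged 3.47 ± 0.599 FPKM in expert and 4.81 ± 0.730 FPKM in naive libraries, a log2 difference of -0.38 with a standard error of 0.16 and an unadjusted p of 0.025. Rps6ka2, an ERK-activated ribosomal S6 kinase, differed by -0.66 in expert against novice mice (standard error 0.27, unadjusted p = 0.025), and Yap1, the coactivator behind Cyr61 and Ctgf, by 0.53 (0.22, 0.027). Heat shock genes that dissociation of tissue raises were higher in 9 of 13 in expert against naive mice (median 0.07) and in 12 of 13 in expert against novice mice (median 0.17), and lower in 10 of 13 in novice against naive mice (median -0.13). Bag3, a chaperone partner of Hsp70, averaged 11.2 ± 3.35 FPKM in expert, against 7.79 ± 2.24 FPKM in naive libraries, with an unadjusted p of 0.035, and 6.39 ± 0.805 FPKM in novice libraries, with an unadjusted p of 0.0034. All 6 expert libraries exceeded both medians for Bag3, and its adjusted p passed in neither comparison. The part of handling of the tissue in the members' levels was not tested.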

How the data were processed

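The authors deposited one table of values per gene for 18 libraries of M1 astrocyte RNA (stranded total RNA libraries, per the labels). Its values behave as FPKM, and per the submitters' processing notes reads were handled with TopHat and Cufflinks on mm9; their versions and settings: not given in the sources used here. A gene-level value does not separate isoforms. Of 23951 entries, 27 with names turned into dates were dropped. Genes with at least 1 FPKM in 6 or more libraries (21745) were tested as log2(FPKM + 1) with limma 3.58.1 in R 4.3.3, all 3 groups in one fit with trend, and Benjamini-Hochberg adjustment over all tested genes. The test was checked on simulated data. Groups follow the learning stage in the labels. Fragments per gene were approximated from steps in low values of 126 single-transcript olfactory genes and the longest transcript, and cover counting error only. Shared replicate numbers did not pair the libraries, since correlations of same-numbered deviations ran from -0.36 to 0.46.

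The members and gene lists were chosen with earlier results of these data known. Fold changes with errors are given for the 10 members of smallest p per comparison, for Fos, Junb, Arc, Npas4, Nr4a1, Homer1, Dusp1 and Sik1, and for up to 4 genes of each other list. Alternatives were another pseudocount, filter, scaling, quantile normalization, replicate block, covariates for background or for sex and age, array weights, left-out libraries and subsets by background. The planned background limit of 2 FPKM left 5 libraries and 0 novices, so a limit of 4 FPKM was added after seeing the data, as were the fits without experts 3 and 6 and with endothelial markers.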

Additional observations from a re-analysis of the deposited data

Results flagged for a closer look

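In 11 of 113 groups of 6 libraries (9.73%), a single library stood far from the other 5 for a member. The limit would flag about 1 in 20 groups of independent, normally distributed values, and members that share libraries are not independent. The rate over all genes was not measured, so no rate stands beside this share. In experts, Arc stood at 27.6 FPKM in expert 2 with the next value at 9.75 FPKM, and Egr3 at 10.2 FPKM in the same library with the next at 5.98 FPKM; expert 2 also had the highest level of neuron markers among experts. Expert 3 stood apart for Dusp6 at 20.9 FPKM (next 13.6 FPKM) and for Gadd45g at 29.6 FPKM (next 14.4 FPKM). Expert 5 was low for Ier5 at 3.30 FPKM, where the next value was 8.39 FPKM. In novices, Cyr61 stood at 23.7 FPKM in novice 6 (next 13.2 FPKM) and Fosl1 at 0.385 FPKM in novice 1, about 1 fragment, with the others at 0. In naive mice, naive 6 was high for Nr4a3 at 12.4 FPKM (next 5.05 FPKM) and for Npas4 at 6.78 FPKM (next 2.22 FPKM), and naive 4 for Dusp1 at 27.5 FPKM (next 15.5 FPKM). Naive 2 was low for Fosl2 at 0.792 FPKM, with the next value at 2.37 FPKM.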

How the results depend on the processing

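No gene was called in any comparison under most alternatives; exceptions were 6 genes for expert against naive at a background below 2 FPKM and, at 4 FPKM or more, 3 genes between novices and naive mice, 4 between experts and naive mice, 5 between experts and novices and 6 for any difference. Members with an unadjusted p under 0.05, 5 for expert against naive, numbered 10 with array weights, 9 at a background below 4 FPKM, 2 below 2 FPKM, 2 at 4 FPKM or more, 1 without experts 3 and 6 and 1 with the endothelial covariate. Those higher in experts were 8 below 4 FPKM, where 2.43% of all genes were, and 1 at 4 FPKM or more (2.72%). Without experts 3 and 6 the number higher was 1 (0.947% of all genes), and with the endothelial covariate 1 (0.589%). For expert against novice, 7 members became 2 with quantile normalization, 2 with the background covariate, 4 without novices 1 and 3, 1 without experts 3 and 6, 13 at a background below 4 FPKM, 0 at 4 FPKM or more and 5 (2 higher, 3 lower) with the endothelial covariate. Here 9 were higher below 4 FPKM, where 4.45% of all genes were, and 0 at 4 FPKM or more (1.77%). Without experts 3 and 6 the number higher was 0 (0.947% of all genes), and with the endothelial covariate 2 (2.89%). For novice against naive, 3 became 0 below 4 FPKM and 5 at 4 FPKM or more. At 4 FPKM or more 4 were higher, where 3.31% of all genes were. For the other alternatives, and for members that were lower in these fits, the share of all genes is not given. Those counts are no result about the members. Leaving out 1 library gave 1 to 4 members for novice against naive (1 without naive 3, naive 6, novice 3, novice 4 or novice 6), 3 (without expert 3 or expert 6) to 9 (without expert 4; 8 without naive 4 or naive 6) for expert against naive, and 2 (without expert 3 or expert 6) to 8 for expert against novice (3 without novice 2, 4 without novice 1, 3, 4 or 5). The members' median ranged from -0.04 to 0.16, from 0.21 to 0.40 and from 0.17 to 0.40 in these comparisons. The replicate block, whose numbers do not pair the libraries, gave 9 members for expert against naive, 10 for expert against novice and 2 for novice against naive, with 0 genes called.

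Some log2 differences of named members, none with an unadjusted p under 0.05 in the main analysis, changed sign. Novice against naive: with array weights Fos 0.0848, Junb -0.00502 and Arc -0.70; with the background covariate Homer1 0.0756; with quantile normalization Homer1 0.00237; without novices 1 and 3 Junb -0.0287; below 4 FPKM Junb -0.0742 and Homer1 0.58; at 4 FPKM or more Nr4a2 -0.0243, Npas4 -0.32 and Homer1 0.31. Expert against naive: with array weights Npas4 0.0768; without experts 3 and 6 Junb -0.14 and Npas4 0.0198; below 4 FPKM Npas4 0.0225; at 4 FPKM or more Gadd45g -0.0942, Arc 1.16, Nr4a1 -0.00161 and Homer1 0.35; with the endothelial covariate Ctgf -0.0101, Fos -0.0559, Junb -0.0398, Arc 0.62, Nr4a1 -0.00854 and Homer1 0.26. Expert against novice: with array weights Arc 0.0867 and Homer1 0.11; with the background covariate Junb -0.0476; with sex and age Nr4a1 0.0828; without experts 3 and 6 Junb -0.21; below 4 FPKM Nr4a1 0.46; at 4 FPKM or more Junb -0.27, Arc 0.29 and Homer1 0.0347; with the endothelial covariate Junb -0.13, Arc 0.53 and Homer1 0.37. Leaving out 1 library moved Arc between -0.28 and 0.53, Homer1 between -0.36 and 0.13 and Junb between -0.0366 and 0.16 for novice against naive, Arc between -0.52 and 0.20 and Npas4 between -0.39 and 0.0620 for expert against naive, and Arc between -0.70 and 0.11, Homer1 between -0.39 and 0.0582 and Nr4a1 between -0.14 and 0.11 for expert against novice. The causes were not tested. Shallow libraries leave members under about 4 FPKM on few fragments.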
